A study of Mus musculus with 11 samples.

Results

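A set of 9 signalling genes, most of them for ligands through which hepatocytes can reach stellate cells and other neighbours, was followed through hepatocyte RNA-seq of mice with and without hepatocyte XBP1. They were Ihh, Ptch1, Tgfb1, Tgfb2, Pdgfa, Pdgfb, Ctgf, Jag1 and Inhba, picked by name as 9 of the 54232 genes counted, with earlier results of these data already known. Hepatocytes were purified from the livers of adult male C57BL/6 mice on a Percoll gradient. The Xbp1 LKO mice carried floxed Xbp1 alleles and Cre recombinase under the albumin promoter, which deletes the gene in hepatocytes, and the Xbp1 fl/fl controls carried the floxed alleles without Cre. For up to 6 weeks mice ate either chow or an HFS diet, rich in fat and sugar, which paired a Western diet with drinking water that held fructose and glucose. There were 3 libraries of fl/fl mice on chow and 2 of LKO mice on chow, each from 1 mouse. There were also 3 libraries of fl/fl and 3 of LKO mice on HFS diet, each a pool of 2 mice. Diet and pooling therefore changed together and cannot be told apart.

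Hedgehog ligands such as Ihh are secreted by one cell and bind Patched receptors on another, which frees Smoothened and turns on GLI factors, and Patched genes are themselves GLI targets. The healthy adult liver has little Hedgehog signalling, and injured hepatocytes are known to make its ligands. TGF-β, PDGF and CTGF drive stellate cells to divide and lay down matrix, Jagged-1 signals to neighbouring cells through Notch receptors, and Inhba encodes the subunit of activin A, a relative of TGF-β.

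The libraries held 19191032 to 23888401 counts. Levels are given as CPM (counts scaled to the same library total, here after TMM scaling), and 3 counts in a library corresponded to 0.112 to 0.173 CPM. Xbp1 itself was at 194 to 301 CPM in the 6 fl/fl libraries and at 95.7 to 135 CPM in the 5 LKO libraries, without overlap on either diet. The count covers the whole gene, and the part outside the deletion can still be read. All 10 hepatocyte markers were present in every library, with a summed level of 111441 to 168134 CPM in fl/fl and 38510 to 88390 CPM in LKO libraries. Alb was the largest part of the sum, with means of 106600 CPM in fl/fl chow and 24140 CPM in LKO chow. Hnf4a had means of 860 and 815 CPM in these groups. Of the 10 markers, 1 was called lower in LKO mice on each diet (10%, against 4.75% and 4.08% of all genes). This was Alb on chow and Apoa1 on HFS diet. The median log2 fold change of the 10 markers was -0.55 on chow and -0.69 on HFS diet, against 0.00 and 0.01 over all genes. On each diet 1 marker had a positive log2 fold change. Markers of other liver cells were far lower. The 13 stellate cell markers summed to 19.7 to 65.4 CPM in fl/fl chow, 14.2 to 16.6 in LKO chow, 34.2 to 60.9 in fl/fl HFS and 38.6 to 80.3 CPM in LKO HFS libraries. The 12 endothelial markers summed to 55.9 to 139 CPM, 33.9 to 43.9, 108 to 187 and 89.2 to 150 CPM in the same order, and the 11 Kupffer cell and macrophage markers to 19.7 to 83.7, 21.6 to 33.0, 38.8 to 53.3 and 54.5 to 94.4 CPM. Of the 8 cholangiocyte markers, 5 never exceeded 3 counts, nor did 3 of 6 platelet and 4 of 8 lymphocyte markers. Replicate 1 of fl/fl chow stood apart, with 65.4 CPM of stellate cell markers against 19.7 and 24.6 in the other fl/fl chow libraries, 139 CPM of endothelial markers against 55.9 and 74.0, and 83.7 CPM of macrophage markers against 19.7 and 20.2. In these bulk libraries, fewer cells of a type and less RNA per cell cannot be told apart.

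**Figure D1:**
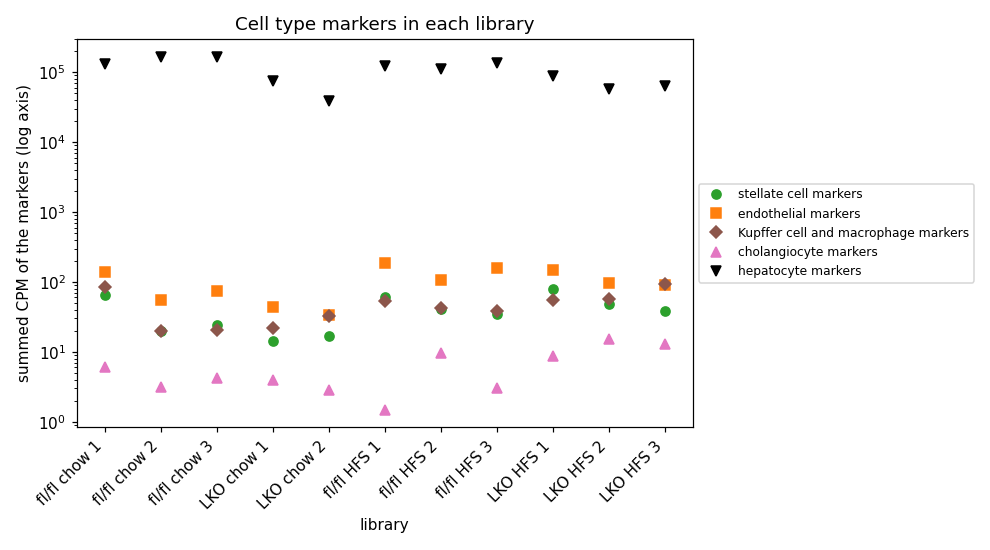
Summed level (CPM, log axis) of 5 lists of cell type markers in each of the 11 libraries, 1 point per list and library. Replicate 1 of fl/fl chow holds 65.4 CPM of stellate cell markers against 19.7 and 24.6 in the other fl/fl chow libraries. The sum of the hepatocyte markers, of which Alb is the largest part, is lower in the LKO libraries.

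Tgfb2 and Pdgfb could hardly be detected. Tgfb2 reached at most 10 counts and Pdgfb at most 10 counts in a library, so that 7 of the 9 genes passed the filter on low counts and entered the fit of 13303 genes. Per kilobase of exon, the mean level over the 11 libraries was highest for Ptch1 at 2.90 CPM, followed by Pdgfa at 1.72, Ihh at 1.38, Inhba at 0.763, Jag1 at 0.736, Tgfb1 at 0.265, Ctgf at 0.248, Pdgfb at 0.0424 and Tgfb2 at 0.0127 CPM per kilobase. An earlier look at these libraries had singled out Ihh for its diet change and Inhba for its chow genotype difference. Their values are therefore given below as a description with no p. The other 5 tested genes have p-values of edgeR's quasi-likelihood test, adjusted by Benjamini-Hochberg over all 13303 genes. The p-values rest on the spread between single mice on chow and between pools on HFS diet, estimated in 1 fit of all 4 groups. P-values for genotype on chow thus draw on the pools as well. With only the chow libraries fitted, no chow call of a member or pathway gene held.

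Of these 5 genes, 1 passed the threshold of 0.05 in LKO against fl/fl mice on chow, where 4.75% of all genes tested passed. That gene was Jag1, which was higher in LKO. On HFS diet 0 of 5 passed the same comparison, against 4.08% of all genes, with 2 at an unadjusted p under the threshold (Pdgfa and Jag1, against 17.5% of all genes) and 0 by DESeq2. For HFS diet against chow, 0 of 5 passed in fl/fl mice (0.428% of all genes), with Ptch1 under the threshold unadjusted (8.95% of all genes), and 0 of 5 in LKO mice (0.0601% of all genes), with Pdgfa under it unadjusted (12.7%), and DESeq2 called 0 in both. No gene of the whole set passed the test of whether the genotype difference changed with diet (0%), and none of the 5 was under the threshold unadjusted (6.13% of all genes) or called by DESeq2. The 4 comparisons share libraries pairwise, so their values are not independent of each other.

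**Figure D2:**
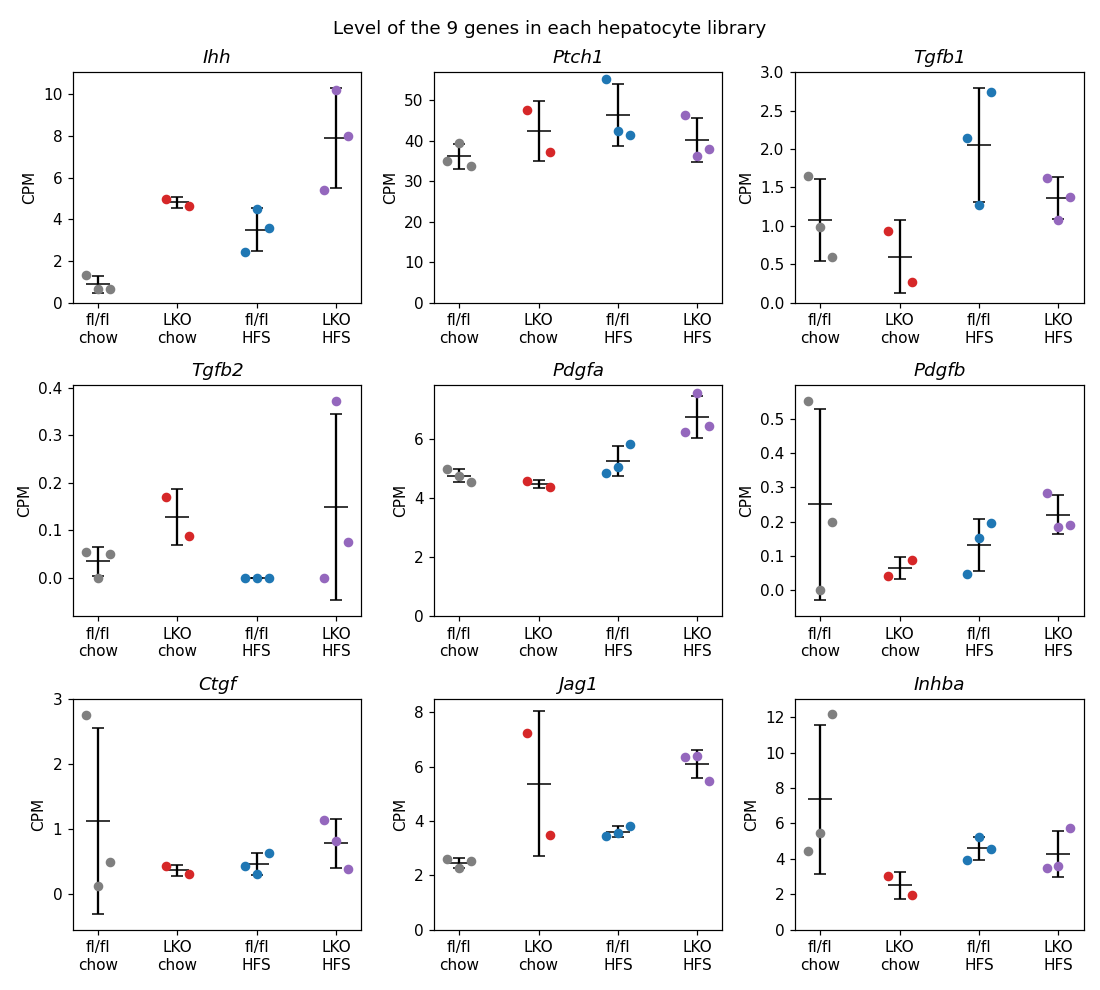
Level in CPM of each of the 9 genes by group, with 1 point per library and black bars for the mean ± SD (n = 3, 2, 3 and 3 libraries). Ihh runs from 0.636 CPM at the lowest in fl/fl chow to 10.2 CPM at the highest in LKO HFS, while Tgfb2 and Pdgfb stay under 0.6 CPM in all libraries.

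Ihh (Indian hedgehog) differed between the 4 groups without overlap. The gene lies at chr1:74945315-74951672 (GRCm38, minus strand). In the 3 fl/fl chow libraries it stood at 1.32, 0.636 and 0.647 CPM, from 24, 11 and 13 counts. The LKO chow libraries had 4.99 and 4.63 CPM, from 117 and 106 counts. On HFS diet the fl/fl libraries had 2.43, 4.48 and 3.58 CPM, and the LKO libraries 5.42, 10.2 and 8.01 CPM. Every HFS library of a genotype was above every chow library of that genotype. The order of the group means was 0.869 ± 0.394 (SD, n = 3) in fl/fl chow, 3.50 ± 1.03 (n = 3) in fl/fl HFS, 4.81 ± 0.255 (n = 2) in LKO chow and 7.89 ± 2.41 CPM (n = 3) in LKO HFS. The gap between fl/fl HFS and LKO chow was narrow, from 4.48 to 4.63 CPM, and smaller than the SD of fl/fl HFS.

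LKO mice thus had 5.54 times the Ihh level of fl/fl mice on chow (log2 fold change 2.46, SE 0.38) and 2.26 times on HFS diet (1.18, SE 0.31). HFS diet went with 4.02 times the chow level in fl/fl mice (2.00, SE 0.36) and 1.64 times in LKO mice (0.71, SE 0.34). The difference between the genotype effects on the 2 diets was -1.29 on the log2 scale (SE 0.49). Groups that do not overlap, with LKO higher, were found for 15.4% of all genes on chow and 13.6% on HFS diet, and with HFS higher for 6.33% in fl/fl and 16.7% in LKO mice. All 4 together were found for 29 genes (0.218%), Ihh among them. Because Ihh was picked for its diet change in these same libraries, these shares describe it and do not test it. Over the 19 alternative settings the log2 fold change stayed between 2.28 and 2.90 for genotype on chow, 0.94 and 1.45 for genotype on HFS diet, 1.78 and 2.43 for diet in fl/fl and 0.48 and 0.93 for diet in LKO mice. Without replicate 1 of fl/fl chow, which had the most stellate cell, endothelial and macrophage markers of its group, the chow genotype difference was 2.90. Summed stellate cell and endothelial markers were lowest in the LKO chow libraries, where Ihh was above both fl/fl groups, and were higher in HFS than in chow libraries of LKO mice, as Ihh was. Their part in the Ihh differences was not tested.

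The bases before the RefSeq start of transcription are shown for Ihh and Jag1, the members whose LKO libraries all lay above the fl/fl libraries on both diets. The 250 bases before the RefSeq start (GRCm38.p6, 5′ to 3′ on the minus strand of both) are at chr1:74951673-74951922 for Ihh and chr2:137116521-137116770 for Jag1. In the annotation used for gene positions, Jag1 starts further upstream, at chr2:137116644, so part of its stretch lies within the gene. Capitals mark GC boxes (GGGCGG on either strand), and the Jag1 stretch has none.
Ihh: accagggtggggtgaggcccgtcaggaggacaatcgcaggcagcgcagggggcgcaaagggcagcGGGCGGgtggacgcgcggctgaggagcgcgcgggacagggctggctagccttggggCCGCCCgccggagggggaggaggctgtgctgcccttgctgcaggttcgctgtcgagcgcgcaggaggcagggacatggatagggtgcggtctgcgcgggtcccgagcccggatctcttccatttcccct
Jag1: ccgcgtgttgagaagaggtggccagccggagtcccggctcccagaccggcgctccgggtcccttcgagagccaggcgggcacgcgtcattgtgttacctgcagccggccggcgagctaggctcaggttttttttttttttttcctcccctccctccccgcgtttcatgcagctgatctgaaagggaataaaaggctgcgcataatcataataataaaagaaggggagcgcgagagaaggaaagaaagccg
Both stretches were searched, on both strands, for the XBP1-linked element UPRE (TGACGTGG), for the ACGTG core, which is part of the UPRE, and for CRE (TGACGTCA), TEAD (GGAATG), GLI (GACCACCCA), AP-1 (TGANTCA) and CCAAT motifs. None of these letters occurs in either stretch. Among 32851 RefSeq promoters of this length, 0.563% hold the UPRE, 16.6% the ACGTG core, 1.55% the CRE, 12.6% the TEAD motif, 0.225% the GLI motif, 6.75% the AP-1 motif, 33.8% the CCAAT motif and 32.7% a GC box. RefSeq promoters were found for 7 of the 9 members, in 8 stretches. The ACGTG core occurred in that of Tgfb2, GC boxes in those of Ihh, Ptch1, Tgfb1 and Pdgfa, and the other motifs in none but for 1 CCAAT in Tgfb2.

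The genes whose pattern was nearest to that of Ihh were sought by the root mean square difference of log2 CPM, centred on each gene's mean over the 11 libraries. Among the nearest of 13302 genes were Lmo2 (0.47), H2-Q1 (0.48), Slc13a3 (0.50) and Prkg2 (0.50). Lmo2 encodes a transcriptional cofactor, H2-Q1 a class I histocompatibility protein, Slc13a3 a dicarboxylate transporter and Prkg2 a cGMP-dependent kinase. Prkg2 was near the limit of detection, with group means of 0.0902 to 1.16 CPM. Slc13a3 had group means of 9.31 CPM in fl/fl chow, 53.7 in LKO chow, 26.0 in fl/fl HFS and 73.6 CPM in LKO HFS.

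Ptch1, the main Hedgehog receptor and the classical readout of GLI activity, lies at chr13:63508328-63573598 (minus strand) and was the most abundant member. It was at 35.1, 39.6 and 33.9 CPM in fl/fl chow, 47.7 and 37.1 in LKO chow, 55.3, 42.5 and 41.4 in fl/fl HFS and 46.4, 36.3 and 38.0 CPM in LKO HFS libraries. Only the fl/fl groups on the 2 diets did not overlap, with all HFS libraries above all chow libraries, which held for 6.33% of genes. The largest difference was this one (log2 fold change 0.36, SE 0.15, edgeR adjusted p = 0.505), and genotype gave 0.23 (SE 0.16, adjusted p = 0.494) on chow and -0.21 (SE 0.15, adjusted p = 0.540) on HFS diet. With library totals in place of TMM the chow difference was 0.55 and passed (adjusted p = 0.0275), and that on HFS diet turned to 0.04. Over the 11 libraries Ptch1 ranged from 33.9 to 55.3 CPM, where Ihh ranged from 0.636 to 10.2 CPM.

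Of 23 other Hedgehog pathway genes, 12 could be tested, and none of them passed. For genotype on chow 3 were under the unadjusted threshold and 1 was called by DESeq2, and on HFS diet 2 and 0. Diet gave 1 and 0 in fl/fl mice, and 0 and 0 in LKO mice. Of all 13303 genes, 2561 on chow and 2322 on HFS diet were under the unadjusted threshold for genotype. For diet 1190 were under it in fl/fl and 1683 in LKO mice. DESeq2 called 1130 and 1007 of all genes for genotype, and 181 and 213 for diet. The median log2 fold change of the 12 was -0.49 on chow and 0.08 on HFS diet for genotype, against 0.00 and 0.01 over all genes. Gli1, the transcription factor that reports pathway activity in responding cells, had 0, 1 or 2 counts in each library. Smo, the signal transducer, was at 3.88 to 7.72 CPM in fl/fl chow, 2.52 and 6.12 in LKO chow, 5.68 to 8.40 in fl/fl HFS and 2.08 to 6.25 CPM in LKO HFS, with genotype differences of -0.57 (SE 0.48, adjusted p = 0.572) and -0.66 (SE 0.42, adjusted p = 0.487). Hhip, a decoy receptor for Hedgehog ligands, had 0 to 15 counts in a library.

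Tgfb1, the main profibrotic cytokine of the liver, lies at chr7:25687002-25705077 (plus strand) and was low. It was at 1.66, 0.983 and 0.598 CPM in fl/fl chow, 0.939 and 0.262 in LKO chow, 2.14, 1.27 and 2.74 in fl/fl HFS and 1.63, 1.08 and 1.38 CPM in LKO HFS libraries. The genotypes overlapped on both diets. Genotype differences were -0.83 (SE 0.58, edgeR adjusted p = 0.484) on chow and -0.59 (SE 0.46, adjusted p = 0.578) on HFS diet. The diet difference was 0.93 (SE 0.48, adjusted p = 0.625) in fl/fl and 1.17 (SE 0.57, adjusted p = 0.423) in LKO mice, where the HFS libraries lay above the chow libraries, as for 16.7% of all genes. These values moved with single libraries. Without LKO chow replicate 1 the genotype difference on chow was -2.01 and the diet difference in LKO mice 2.35, and without LKO chow replicate 2 they were -0.19 and 0.54. Without fl/fl chow replicate 1 the genotype difference on chow was -0.38, and without fl/fl HFS replicate 3 that on HFS diet was -0.33. In LKO mice, stellate cell, endothelial and macrophage markers each summed higher in every HFS library than in every chow library. In fl/fl mice the sums on the 2 diets overlapped for each of these lists. Their part in the Tgfb1 values was not tested. Tgfb2, at chr1:186622792-186705989 (minus strand), had 1, 0 and 1 counts in fl/fl chow, 4 and 2 in LKO chow, none in fl/fl HFS and 0, 10 and 2 counts in LKO HFS libraries. At this depth a library without a count allows a level of up to 3 counts, or 0.112 to 0.173 CPM.

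Of 29 other TGF-β pathway genes, 23 were tested. On chow, 1 rose and 1 fell in LKO mice, and on HFS diet 2 fell, which is 8.70% of those tested on each diet against 4.75% and 4.08% of all genes. Furin, the protease that processes the TGF-β precursor among many others, fell in both. It was at 388, 364 and 268 CPM in fl/fl chow and 212 and 197 CPM in LKO chow, and at 352, 383 and 426 CPM in fl/fl HFS against 217, 170 and 193 CPM in LKO HFS libraries. The groups did not overlap on either diet. The log2 fold change of Furin was -0.73 (SE 0.18, edgeR adjusted p = 0.0384) on chow and -1.002 (SE 0.16, adjusted p = 0.00582) on HFS diet, where it held in all 19 alternatives. Tgfbr3, the co-receptor betaglycan, rose in LKO mice on chow, from 6.34, 2.37 and 2.34 to 10.5 and 12.0 CPM (1.61, SE 0.40, adjusted p = 0.0424), while on HFS diet it was at 8.67 to 15.3 CPM in fl/fl and 10.2 to 16.4 CPM in LKO libraries. Smad4, the common partner of the receptor-activated SMADs, fell in LKO mice on HFS diet from 35.0, 32.1 and 33.0 to 25.9, 25.9 and 25.9 CPM (-0.36, SE 0.08, adjusted p = 0.0320). The Smad4 call held in 9 of 19 alternatives, and with library totals in place of TMM factors the difference was -0.11 (adjusted p = 0.428). The receptors gave no call. Tgfbr1 differed by -0.02 (SE 0.17, adjusted p = 0.970) on chow and 0.33 (SE 0.15, adjusted p = 0.297) on HFS diet, and Tgfbr2 by -0.05 (SE 0.27, adjusted p = 0.945) and 0.13 (SE 0.24, adjusted p = 0.853).

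Pdgfa, a ligand of PDGF receptor alpha, lies at chr5:138976014-138997370 (minus strand). It was at 4.96, 4.74 and 4.53 CPM in fl/fl chow, 4.56 and 4.37 in LKO chow, 4.86, 5.04 and 5.83 in fl/fl HFS and 6.23, 7.55 and 6.44 CPM in LKO HFS libraries. Every LKO HFS library was above every other library. The difference was 0.36 (SE 0.15, edgeR adjusted p = 0.243) from fl/fl HFS and 0.59 (SE 0.17, adjusted p = 0.240) from LKO chow, and neither passed. Non-overlapping groups with the same direction were found for 13.6% and 16.7% of all genes. On chow, genotype gave -0.09 (SE 0.17, adjusted p = 0.841), and diet in fl/fl mice gave 0.14 (SE 0.16, adjusted p = 0.872). With library totals the HFS genotype difference was 0.63 and passed (adjusted p = 0.0346), and the chow difference turned to 0.24. An antisense gene with 186 counts over all libraries overlaps Pdgfa, and its reads can be told apart only where counting used the strand. Pdgfb, the main mitogen of stellate cells, lies at chr15:79995874-80014977 (minus strand). It had 10, 0 and 4 counts in fl/fl chow, 1 and 2 in LKO chow, 1, 3 and 4 in fl/fl HFS and 7, 5 and 5 counts in LKO HFS libraries. Its highest level, 0.552 CPM, was in fl/fl chow replicate 1.

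Of 5 other PDGF pathway genes, 3 were tested. For genotype on chow 1 was called (33.3%, against 4.75% of all genes). On HFS diet 0 of 3 were called (4.08% of all genes), with 1 under the unadjusted threshold (17.5% of all genes) and 0 by DESeq2. Pdgfc, another ligand of PDGF receptor alpha, rose in LKO mice on chow, from 2.43, 1.44 and 2.14 to 3.50 and 7.95 CPM (1.51, SE 0.36, edgeR adjusted p = 0.0374). On HFS diet it was at 2.81, 4.28 and 3.04 CPM in fl/fl and 4.81, 5.62 and 7.48 CPM in LKO libraries (0.82, SE 0.32, adjusted p = 0.201), without overlap. Without LKO chow replicate 2 the chow difference was 0.80 (adjusted p = 0.472). The receptor genes Pdgfra and Pdgfrb, which mark stellate cells, stayed under 1 CPM in every library. Their genotype differences on chow were -1.001 (SE 0.89, adjusted p = 0.595) and -0.66 (SE 0.86, adjusted p = 0.740), and on HFS diet 0.48 (SE 0.62, adjusted p = 0.765) and -0.02 (SE 0.65, adjusted p = 0.992).

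Jag1, the Notch ligand Jagged-1, lies at chr2:137081456-137116644 (minus strand) and was the only tested member with a call. It was at 2.59, 2.25 and 2.54 CPM in fl/fl chow (2.46 ± 0.182, SD, n = 3) and at 7.25 and 3.50 CPM in LKO chow (5.37 ± 2.66, n = 2). On HFS diet it was at 3.43, 3.56 and 3.82 CPM in fl/fl (3.60 ± 0.199, n = 3) and 6.35, 6.40 and 5.48 CPM in LKO libraries (6.08 ± 0.516, n = 3). LKO libraries were above fl/fl libraries without overlap on both diets, as for 15.4% of all genes on chow and 13.6% on HFS diet. Jag1 rose on chow by a log2 fold change of 1.12 (SE 0.27, edgeR adjusted p = 0.0377), and on HFS diet the difference was 0.75 (SE 0.24, adjusted p = 0.112). HFS diet gave 0.55 (SE 0.25, adjusted p = 0.567) in fl/fl, again without overlap (6.33% of all genes), and 0.18 (SE 0.26, adjusted p = 0.822) in LKO mice. The chow call rested on the first LKO library, without which the difference was 0.50 (adjusted p = 0.274), and was lost when any library but LKO chow replicate 2 was left out. It held in 6 of 19 alternatives, and that on HFS diet passed in 5 of 19.

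Of 29 other Notch pathway genes, 20 were tested and 1 fell in LKO mice on chow (5% against 4.75% of all genes). This was Sox9, a Notch-responsive transcription factor of biliary cells and of hepatocytes that take on biliary traits. It was at 6.23, 4.86 and 4.38 CPM in fl/fl chow and 1.58 and 1.97 CPM in LKO chow (-1.54, SE 0.31, edgeR adjusted p = 0.0167), and at 1.95, 3.16 and 3.14 CPM in fl/fl HFS against 2.00, 1.30 and 1.495 CPM in LKO HFS libraries (-0.78, SE 0.27, adjusted p = 0.143). The call was lost without LKO chow replicate 1 (-1.39, adjusted p = 0.0767) or replicate 2 (-1.71, adjusted p = 0.103). The Sox9 call was also lost with only the chow libraries fitted. On HFS diet 0 of 20 were called (4.08% of all genes). Of the 20, 5 were under the unadjusted threshold (17.5% of all genes) and 1 was called by DESeq2 (1007 of all 13303 genes). Notch1, a receptor, differed by 0.90 (SE 0.31, adjusted p = 0.135) on chow and 0.84 (SE 0.28, adjusted p = 0.135) on HFS diet, at 11.7 to 20.7 CPM in fl/fl chow, 19.6 and 43.3 in LKO chow, 14.5 to 18.3 in fl/fl HFS and 22.1 to 32.6 CPM in LKO HFS libraries. Notch2, the main Notch receptor of the adult hepatocyte, was at 33.2 to 59.1 CPM and differed by -0.26 (SE 0.17, adjusted p = 0.463) and -0.22 (SE 0.15, adjusted p = 0.543).

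Ctgf, named Ccn2 in the annotation used, lies at chr10:24595442-24598683 (plus strand) and encodes connective tissue growth factor, a matricellular protein and target of TGF-β and of YAP/TEAD. It was at 2.76, 0.116 and 0.498 CPM in fl/fl chow, from 50, 2 and 10 counts, and at 0.427 and 0.306 CPM in LKO chow. On HFS diet it had 0.429, 0.305 and 0.637 CPM in fl/fl and 1.14, 0.818 and 0.383 CPM in LKO libraries. The groups overlapped in all 4 comparisons. Replicate 1 of fl/fl chow also had the most stellate cell, endothelial and macrophage markers in its group, and their part in the Ctgf values was not tested. This library set the direction of the comparisons with that group. The genotype difference on chow was -1.60 (SE 0.96, edgeR adjusted p = 0.405) with it and 0.21 (adjusted p = 0.916) without it, and the diet difference in fl/fl mice -1.28 (SE 0.83, adjusted p = 0.736) with it and 0.53 (adjusted p = 0.857) without it. Genotype on HFS diet gave 0.76 (SE 0.83, adjusted p = 0.721), and diet in LKO mice 1.08 (SE 0.96, adjusted p = 0.679).

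Among 24 other genes of the CCN family and the YAP/TEAD pathway, 18 were tested, and Tead1 rose in LKO mice on both diets (5.56% of 18 in each, against 4.75% and 4.08% of all genes). Tead1 encodes a DNA-binding partner of YAP and TAZ. It was at 6.12, 5.09 and 5.23 CPM in fl/fl chow against 11.9 and 10.2 in LKO chow, and at 5.001, 3.77 and 5.98 in fl/fl HFS against 7.41, 10.6 and 9.55 CPM in LKO HFS libraries. The log2 fold change was 1.01 (SE 0.21, edgeR adjusted p = 0.0230) on chow and 0.90 (SE 0.20, adjusted p = 0.0284) on HFS diet. Cyr61 (Ccn1 in the annotation), the CCN family member nearest in role to Ctgf, was at 13.3 to 38.4 CPM in fl/fl chow, 38.1 and 38.3 in LKO chow, 17.1 to 27.4 in fl/fl HFS and 22.9 to 35.9 CPM in LKO HFS libraries. Its genotype differences were 0.62 (SE 0.35, adjusted p = 0.367) and 0.55 (SE 0.32, adjusted p = 0.428).

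Inhba lies at chr13:16011851-16031621 (plus strand). It was at 4.47, 5.43 and 12.2 CPM in fl/fl chow and 3.03 and 1.97 CPM in LKO chow, so that LKO was lower without overlap, at 0.339 times the fl/fl mean (log2 fold change -1.56, SE 0.43). Such groups were found for 15.9% of all genes. Replicate 3 of fl/fl chow was the highest of all libraries, and without it the difference was -0.98. On HFS diet the fl/fl libraries had 3.95, 5.24 and 4.55 CPM and the LKO libraries 3.50, 3.57 and 5.75 CPM, which overlapped and differed by -0.10 (SE 0.36). The sign of that difference turned under 4 of 19 alternatives. The LKO HFS libraries were all above the LKO chow libraries (0.77, SE 0.42), as for 16.7% of all genes, and the fl/fl groups overlapped (-0.69, SE 0.36). Without fl/fl chow replicate 3 the diet difference in fl/fl mice was -0.11, at one end of its range of -0.95 to -0.11 over 19 alternatives.

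Of 11 other activin and inhibin genes, 8 were tested and 2 rose in LKO mice on HFS diet (25% against 4.08% of all genes). Inhbe, which encodes a hepatocyte-secreted subunit of activin E, was at 97.6, 68.5 and 83.4 CPM in fl/fl HFS and 139, 176 and 187 CPM in LKO HFS libraries. Its log2 fold change was 1.01 (SE 0.16, edgeR adjusted p = 0.00631) and held in all 19 alternatives. On chow Inhbe was at 69.9 to 72.2 CPM in fl/fl and 84.6 and 112 CPM in LKO libraries (0.47, SE 0.18, adjusted p = 0.160). Inhbc, another hepatocyte-secreted subunit, went from 68.5, 70.8 and 70.9 to 115, 106 and 96.7 CPM on HFS diet (0.60, SE 0.12, adjusted p = 0.0177). On chow 0 of 8 were called (4.75% of all genes), with 2 under the unadjusted threshold and 0 by DESeq2 (2561 and 1130 of all 13303 genes). Inhbb was at 1.10 CPM or less in every library and differed by -1.47 (SE 1.31, adjusted p = 0.598) on chow and -1.28 (SE 0.91, adjusted p = 0.540) on HFS diet. The activin antagonist Fst was at 0.939 to 5.52 CPM and differed by -0.86 (SE 0.55, adjusted p = 0.437) and -0.21 (SE 0.48, adjusted p = 0.886). Acvr2a, an activin type II receptor, stayed at 20.6 to 27.0 CPM and differed by -0.04 (SE 0.13, adjusted p = 0.896) and 0.04 (SE 0.11, adjusted p = 0.922).

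**Figure D3:**
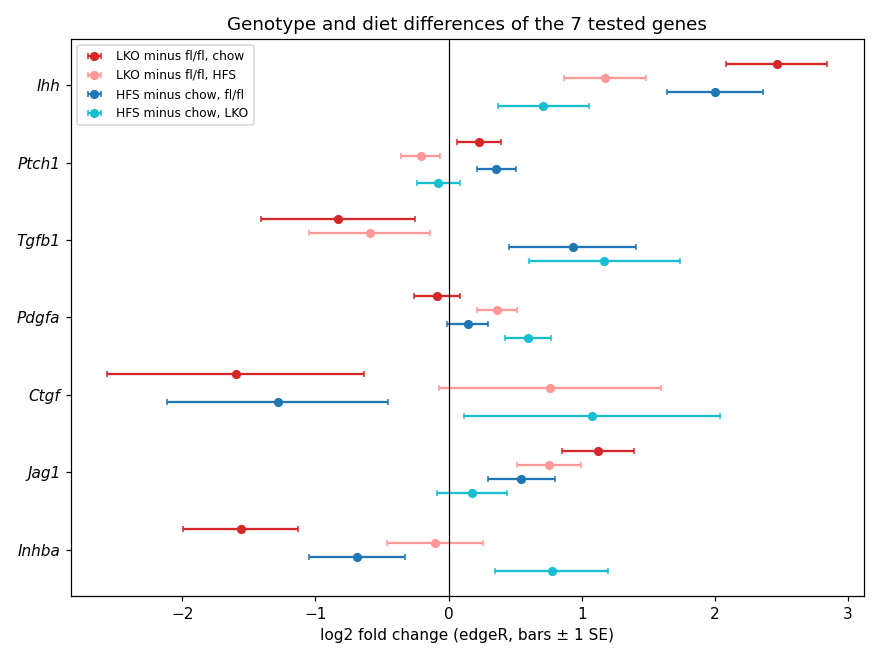
Log2 fold change of the 7 tested members (points, with bars of ± 1 SE from the edgeR fit of 11 libraries) for genotype on each diet and diet in each genotype. Ihh lies above 0 in all 4 comparisons, from 0.71 to 2.46, and Jag1 from 0.18 to 1.12, while Ctgf and Inhba lie on both sides of 0.

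Outside these pathways, 12 of 20 further ligands that act on stellate cells were tested. For genotype on HFS diet 1 was called (8.33%, against 4.08% of all genes). On chow 0 of 12 were called (4.75% of all genes), with 5 under the unadjusted threshold and 2 by DESeq2 (2561 and 1130 of all 13303 genes). Areg, which encodes the EGF receptor ligand amphiregulin, rose in LKO mice on HFS diet (edgeR adjusted p = 0.0392). It had 26, 41 and 33 counts in the LKO HFS libraries and none in the fl/fl HFS libraries, and was thus at least 8.70-fold higher, taking 3 counts per library as the floor. In the chow groups it was at 0 in all fl/fl libraries and had 0 and 13 counts in LKO. The call held in 10 of 19 alternatives. It was lost when any HFS library was left out, with either replicate block and with DESeq2, at adjusted p of up to 0.127. Of 23 genes of stellate cell activation and matrix, 16 were tested. Fn1, which encodes fibronectin and is made in quantity by hepatocytes, fell in LKO mice on HFS diet. It went from 2642, 3639 and 3084 to 1573, 1423 and 1154 CPM (-1.17, SE 0.24, edgeR adjusted p = 0.0208). This call was 6.25% of those tested, against 4.08% of all genes. On chow 0 of 16 were called (4.75% of all genes), with 4 under the unadjusted threshold and 2 by DESeq2. The median log2 fold change of the tested matrix genes for genotype was -1.04 on chow and 0.39 on HFS diet. For diet it was 0.47 in fl/fl and 1.74 in LKO mice, against 0.01 or less in size over all genes. The stellate cell markers had medians of -1.29, 0.27, 0.45 and 2.23 in the same comparisons. Both lists hold Col3a1, Dcn and Acta2, of which Acta2 had too few counts for a test, so the medians share genes. The part of stellate cells in the matrix values was not tested.

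Over all lists, 164 genes other than members were described, 112 of them tested. In LKO against fl/fl mice on chow 3 rose and 2 fell, and on HFS diet 4 rose and 3 fell. These were 4.46% and 6.25% of those tested, against 4.75% and 4.08% of all genes. Diet called 0 in fl/fl mice (0.428% of all genes), with 10 under the unadjusted threshold (8.95%) and 1 by DESeq2 (181 of all 13303 genes). In LKO mice diet called 0 (0.0601%), with 26 unadjusted (12.7%) and 8 by DESeq2 (213 genes). The test for a genotype difference that changed with diet called 0 (0%), with 11 unadjusted (6.13%) and 0 by DESeq2 (29 genes). Furin and Inhbe on HFS diet were called without each of the 11 libraries in turn. The other calls were lost without at least 1 library. Those for Tead1 were lost without fl/fl chow replicate 2 or 3 or either LKO chow library (0.90 to 1.11), and without fl/fl HFS replicate 1 or 2 or LKO HFS replicate 2 or 3 (0.75 to 1.07). That of Inhbc was lost without any of the fl/fl HFS libraries or LKO HFS replicate 2 (0.54 to 0.66). The Smad4 call was lost without any 1 of the HFS libraries (-0.39 to -0.33), and that of Fn1 without fl/fl HFS replicate 2 or 3 or LKO HFS replicate 2 or 3 (-1.28 to -1.05). On chow the Furin call (-0.88 to -0.63) was kept only without fl/fl chow replicate 3 or LKO HFS replicate 1 or 2. The Pdgfc call (0.80 to 1.98) was kept only without LKO chow replicate 1, fl/fl HFS replicate 2 or LKO HFS replicate 1 or 3, and that of Tgfbr3 (1.36 to 2.25) only without replicate 1 of fl/fl chow, fl/fl HFS or LKO HFS. Of all 19 alternatives, the chow calls held in 7 for Furin, 9 for Pdgfc, 8 for Tgfbr3, 16 for Sox9 and 13 for Tead1, and the HFS calls in 13 for Tead1, 15 for Inhbc and 15 for Fn1. With library totals the Furin difference on chow was -0.41, and its call was lost.

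**Figure D4:**
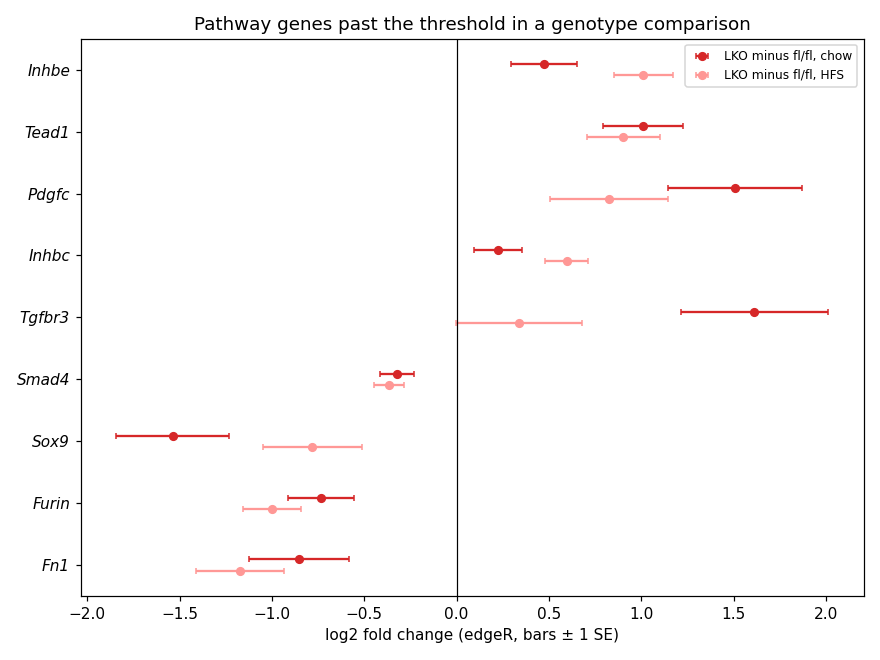
Log2 fold change of LKO against fl/fl on chow and on HFS diet (points, with bars of ± 1 SE from the edgeR fit) for the pathway genes past the threshold in at least 1 of these comparisons, apart from Areg, which had no counts in fl/fl libraries. Tgfbr3 on chow is the furthest above 0 at 1.61, and Furin, Smad4, Sox9 and Fn1 lie below 0 on both diets.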

How the data were processed

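Counts per Ensembl gene were deposited by the authors for 11 libraries, neither normalized nor filtered. The study's methods name kallisto, tximport and DESeq2, and the submitters' processing notes name cutadapt 1.13, STAR, HTSeq 0.6.1p1, DESeq2 and mm10. Of 427 groups of genes with identical transcript sequence, 406 had no counts and 20 differed at least 2-fold between copies. The counting of strand is not given in the sources used here. Symbols came from GENCODE M21 for 54165 of 54232 identifiers, with older symbols matched through RefSeq synonyms.

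CPM and TMM factors (0.878 to 0.938 in fl/fl, 1.05 to 1.19 in LKO libraries) came from edgeR 4.0.16, run in R 4.3.3. Genes with few reads were dropped by filterByExpr at a minimum of 10, and 1 quasi-likelihood fit of the 4 groups took in all libraries. P-values were adjusted by Benjamini-Hochberg, with 0.05 as the threshold. SE is the size of the log2 fold change over the square root of F. The members and gene lists were chosen with earlier results of these data known. Genes named are the 9 members, the list genes past the threshold in any comparison (at most 4 per list and comparison), 15 fixed receptors, ligands and readouts, and the 5 genes nearest to Ihh. Certain genes of these lists were left out of the text and of the list counts. No libraries were duplicates: chi-square over degrees of freedom was 27.9 to 102 between replicates, far above counting noise, so intervals of counting error are not given. Alternatives were DESeq2 1.42.0, RLE size factors, library totals, other filters (none, minimum count 30), only the groups compared, replicate blocks and each library left out. In simulated counts, genes with a mean above 1 CPM were changed in both LKO groups, and genotype on HFS diet was scored (12911 genes). There edgeR recovered 69 of 100 genes changed by 1 on the log2 scale and 95 of 100 changed by 2, with 8 false calls. DESeq2 recovered 79 and 96 of 100, with 28 false calls. Recovery for changed genes at lower levels and for genotype on chow was not scored.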

Additional observations from a re-analysis of the deposited data

How the results depend on the processing

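The number of the 5 tested members called was 1 for genotype on chow and 0 elsewhere. It became 2 for genotype on chow and 2 on HFS diet with library totals, 1 on HFS diet with no filter, 0 on chow and 1 on HFS diet when only the groups compared were fitted, and 0 on chow with either replicate block. Leaving out 1 library gave 0 to 1 on chow and 0 to 1 on HFS diet. The number of pathway genes called, 5 on chow, 7 on HFS diet and 0 elsewhere, became 13 on chow, 1 for diet in fl/fl and 8 for diet in LKO mice with DESeq2, and 19 and 14 for genotype on the 2 diets with library totals, which shifted the median of all genes by 0.33 on chow and 0.27 on HFS diet. With no filter it became 22 and 18 for genotype, 1 and 18 for diet and 8 for the change of genotype with diet. Fitting only the 2 groups compared gave 0 on chow and 11 on HFS diet. The cause of these moves was not tested. Of all 13303 genes, DESeq2 called 1130 for genotype on chow, 181 for diet in fl/fl and 213 for diet in LKO mice. Library totals called 3000 of all genes for genotype on chow and 1483 on HFS diet. Counts over all genes are not given here for the other alternatives. Leaving out 1 library gave 0 to 5 pathway genes on chow, 2 to 9 on HFS diet and 0 to 1 for diet in fl/fl mice.

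What same-numbered libraries share beyond the number is not given in the sources used here. The correlation of their deviations had a mean of -0.00866 over 15 pairs, from -0.199 to 0.231. A shared batch was not tested. The replicate block gave 4 pathway genes for genotype on HFS diet and 6 on chow, and numbering the second LKO chow library as 3, as elsewhere in the records, gave 4 and 6, and 3 for diet in LKO mice.

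Of 651 refitted log2 fold changes of members, 14 turned sign, none of them a call. With library totals these were Ptch1 (0.044) and Inhba (0.17) for genotype on HFS diet and Pdgfa (0.24) for genotype on chow. The others turned where 1 library was left out. Ctgf ranged from -2.12 to 0.21 for genotype on chow and from -1.81 to 0.53 for diet in fl/fl mice, both turning without fl/fl chow replicate 1. The Tgfb1 interaction ranged from -0.40 to 1.41 and turned without fl/fl chow replicate 1, LKO chow replicate 2 or fl/fl HFS replicate 2. Ptch1 for diet in LKO mice ranged from -0.24 to 0.11 and the Jag1 interaction from -0.80 to 0.24, turning without LKO chow replicate 1, and Jag1 for diet in LKO mice from -0.25 to 0.79, turning without replicate 2. Inhba for genotype on HFS diet ranged from -0.37 to 0.025 and turned without fl/fl HFS replicate 2 or LKO HFS replicate 1 or 2. A prior count of 0.5 moved no group mean of log2 CPM by over 1 SD, and the forward strand alone gave lower motif shares for all but the palindromic motifs.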

Other observations

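Of the genes nearest to Ihh in pattern, Lmo2 had group means of 0.610 CPM in fl/fl chow, 4.90 in LKO chow, 1.86 in fl/fl HFS and 4.51 CPM in LKO HFS, and H2-Q1 1.64, 5.23, 4.65 and 8.79 CPM. Tgfbr3 was the 11th, Pdgfc the 50th and Jag1 the 121st nearest of 13302 genes. These were the nearest among the members and pathway genes. The next member, Pdgfa, was the 1289th, and Hhip was the 2264th. The 8 cholangiocyte markers summed to 3.18 to 6.01 CPM in fl/fl chow, 2.84 to 4.01 in LKO chow, 1.48 to 9.52 in fl/fl HFS and 8.76 to 15.1 CPM in LKO HFS libraries. Spp1, which is also on the list of other ligands, made up 8.23, 14.1 and 12.5 CPM of the sums in LKO HFS libraries, and 5 of the 8 markers never exceeded 3 counts. The 6 platelet markers summed to 1.47 to 4.18 CPM and the 8 lymphocyte markers to 0.448 to 3.37 CPM over all libraries.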
